A study of Rattus norvegicus with 10 samples.

Results

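miR-221 and miR-222 are a pair of microRNAs (miRNAs) whose levels were compared between growing and quiescent collateral vessels of the rat, natural bypass arteries that widen after a main artery is blocked. They were taken by name, as the probes called rno-miR-221 and rno-miR-222, and are 2 of the 237 rat miRNAs on a 1107-probe array. The RNA came from collateral vessel tissue of 5 male rats of the strain labelled Spraque-Dawley, whose age was not given in the sources used here. In the shunt group (n = 5) the femoral artery of the leg was ligated and an arteriovenous shunt was made, which raises fluid shear stress in the collaterals. In the control group (n = 5) it was the opposite, sham-operated leg of the same animal, so the controls carried the circulation of an animal with a shunt. There were 10 arrays, and every RNA was read once with the dye AF665 and once with AF546, on different arrays. Of these arrays 4 held only control RNA, 4 held only shunt RNA and 2 held both.

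miR-221 and miR-222 are made from neighbouring hairpins on the X chromosome and begin with the same bases, so they share a seed, the stretch that pairs with target messages. In vascular smooth muscle they are known to favour growth by repressing the cell cycle inhibitors p27Kip1 (Cdkn1b) and p57Kip2 (Cdkn1c) and the receptor KIT. In endothelium, where KIT is also a target, they are known to restrain the formation of new vessels.

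The mature 3p sequences from RefSeq (build GRCr8) are shown because the shared seed, in capitals (bases 2 to 8, 5′ to 3′), is what makes these molecules a pair.
miR-221: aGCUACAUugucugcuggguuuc
miR-222: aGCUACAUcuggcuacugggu
The first 8 bases were identical, and 11 of the 21 positions compared from the 5′ end held the same base. Among 724 mature rat miRNAs in the RefSeq table the seed GCUACAU occurred in these 2 only. The hairpins lie 458 bases apart on the plus strand, Mir222 at chrX:6022621-6022723 and Mir221 at chrX:6023182-6023290. The array's names give no arm. The 3p arm is the one the older name usually means, and the probe sequences were not analysed here.

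Both miRNAs gave weak signals, close to the local background of the scanned slides. A spot was counted as above background when its mean foreground exceeded the median local background by 2 SD, and a channel (1 RNA in 1 dye) when at least 2 of its 3 spots did. Signals here are foreground minus local background, before normalization, as means of the 3 spots.

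For miR-221, 4 of 10 control channels and 9 of 10 shunt channels were above background. More shunt than control channels were above background for 65.6% of the rat miRNAs tested, so this order was common on these arrays. In the control RNAs 1 to 5 its AF546 signal was 81.3, 32.7, 36, 47.7 and 31.7 intensity units, and in the shunt RNAs 1 to 5 it was 45.7, 86.3, 73.7, 65.7 and 57.3. In AF665 the control signals were 9, 5.33, 31.7, 25.7 and 15.3 and the shunt signals 31.7, 57.3, 29.7, 31.3 and 7.67. The groups overlapped in both dyes before normalization, with control 1 the second highest AF546 reading and shunt 5 the second lowest AF665 reading. Of the 6 spots of an RNA, 2, 1, 4, 6 and 1 were above background in the control RNAs and 5, 6, 6, 5 and 4 in the shunt RNAs, or 2.8 ± 2.2 against 5.2 ± 0.84 (SD, n = 5 each). miR-221 too entered the analysis only through its shunt channels, so this difference is given as a description, with no test. It was 0.80 spots with a margin of 1 SD and 3.2 spots with 3 SD.

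For miR-222, 0 of 10 control channels and 5 of 10 shunt channels were above background. In the control RNAs 1 to 5 its AF546 signal was 22, 18, 25.3, 23.7 and 12 intensity units, against 22.3, 49.3, 39, 42.3 and 40.7 in the shunt RNAs. In AF665 the control signals were 3.33, 2, 17.7, 8 and 8.67 and the shunt signals 16.3, 29, 17, 17.7 and 0.667. Shunt 2 was the brightest RNA in both dyes, whereas shunt 5 was high in AF546 and the lowest of all 10 in AF665. No control spot was above background, and 1, 6, 3, 3 and 2 of the 6 spots were in the shunt RNAs. The mean was 3.0 ± 1.9 spots (SD, n = 5) against 0. miR-222 entered the analysis only through its shunt channels, so this difference is given as a description, with no test. It was 3.2 spots with a margin of 1 SD and 0.60 spots with 3 SD.

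How miR-222 was counted depended on the definition of background. Rat miRNAs were kept for testing when at least 5 of the 10 channels of 1 group were above background, which left 93. miR-222 sat exactly at that minimum, as did 14 of the 93 in all. With the mean in place of the median local background, or the median in place of the mean foreground, only 3 of its 10 shunt channels were above background and it was not kept. It was thus kept under 1 of the 3 definitions, while miR-221 was kept under each with the same 4 and 9 channels. Both were kept only through their shunt channels. Tests of their levels after this filter therefore follow a selection on the shunt group. In addition, 12 of the 30 control spots and 2 of the 30 shunt spots of miR-222 carried a flag of the scanner software, and they were left in. For miR-221 no spot did. Being above background in no control channel and in at least 5 shunt channels was shared by 9 of the 93 kept miRNAs (9.68%).

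**Figure D1:**
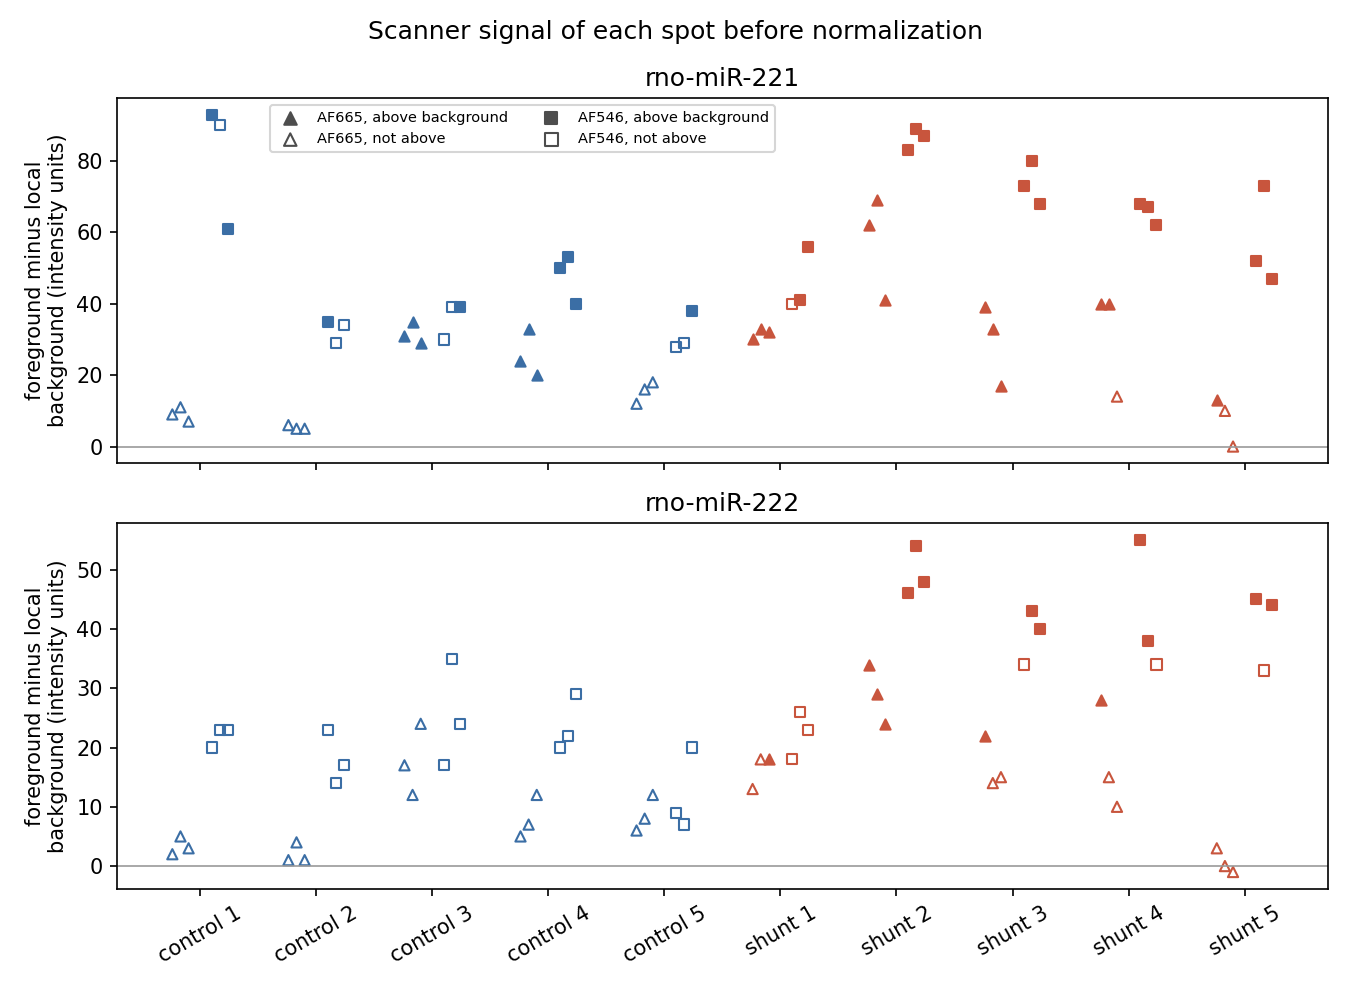
Scanner signal of every spot of rno-miR-221 (top) and rno-miR-222 (bottom) by RNA, as foreground minus local background in intensity units, control RNAs in blue and shunt RNAs in red, triangles for AF665 and squares for AF546, filled where the spot was above background. For miR-222 all 30 control spots are open and 15 of the 30 shunt spots are filled; for miR-221 14 control and 26 shunt spots are filled, and the groups overlap in height.

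The number of miRNAs above background also differed between the groups. Rat miRNAs above background numbered 60.5 ± 19 per control RNA and 88.8 ± 13 per shunt RNA (SD, n = 5 each, means of the 2 channels; exact permutation p = 0.0317 unpaired and 0.0625 within animals). On the arrays holding both groups the order was not higher in shunt. There were 54 in shunt 1 (AF546) against 55 in control 5 (AF665), and 30 in shunt 5 (AF665) against 84 in control 1 (AF546). These pairs also differ in dye, and the counts varied with the channel. On other arrays shunt 5 had 127 in AF546 and control 1 had 58 in AF665. Most arrays held 1 group, so array and group largely cannot be told apart. The part of this difference in the counts of miR-221 and miR-222 was not tested.

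After background correction with an offset of 50 and normalization within and between arrays, each RNA had 1 value per miRNA on the log2 intensity scale, which has a floor of 5.64. The offset compresses differences between weak signals. Levels of miR-221 and miR-222 come from different probes and are not set against each other.

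In all 5 animals miR-221 read higher on the side of the shunt, by 1.16-fold on average. Its normalized log2 level was 6.44, 6.37, 6.26, 6.37 and 6.36 in the control RNAs and 6.50, 6.53, 6.56, 6.67 and 6.59 in the shunt RNAs, or 6.36 ± 0.063 against 6.57 ± 0.064 (SD, n = 5 each). Every shunt RNA was above every control RNA. Such groups without overlap, shunt higher, were seen in 5 of the 93 kept miRNAs (5.38%), and a higher level in 5 of 5 animals in 13 (14.0%). The separation appeared only after normalization and rests in part on readings near background. Shunt 5 in AF665, with a signal of 7.67 and not above background, became 6.63, the highest normalized AF665 reading of miR-221. The shunt minus control differences for animals 27, 28, 30, 31 and 32 were 0.066, 0.16, 0.30, 0.30 and 0.24 log2.

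The difference of 0.21 log2 (SE 0.065, 95% interval 0.068 to 0.36) did not pass in the limma fit over the 93 miRNAs, with an unadjusted p of 0.00801 and an adjusted p of 0.106. By that p it ranked 7 among the 93 and by its size 29. As a single value it passed the exact permutation test over unpaired RNAs (p = 0.00794, the smallest that 5 against 5 can give). miR-221 entered the tests only through its shunt channels. This pass therefore follows a selection on the shunt group and cannot alone decide whether the level differed. Adjusted over 7 single values, that exact permutation p was 0.0278. Those 7 include the spot counts of both miRNAs, which are given here with no test. The one of miR-222 lowered the adjusted value, which is therefore not relied on. Within animals the exact permutation test gave p = 0.0625, the smallest it can give. Of the 93 kept miRNAs 1 passed the limma test with a higher level in shunt (1.08%) and 0 with a lower level, 18 having an unadjusted p under 0.05. The share of the 93 with an unadjusted p under 0.05 and a higher level in shunt, as miR-221 had, was 17.2%. With the animal as a fixed replicate block, which the design allows since both legs came from 1 rat, 0 passed by limma (13 at an unadjusted p under 0.05), and the adjusted p of miR-221 was 0.288. With no filter, over all 237 rat miRNAs, the adjusted p of miR-221 was 0.0361, the only limma setting tried in which it passed.

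In 4 of 5 animals miR-222 read higher on the side of the shunt, a share of animals reached by 47.3% of the kept miRNAs. Its normalized log2 level was 5.97, 6.10, 6.12, 6.09 and 6.04 in the control RNAs and 6.19, 6.33, 6.25, 6.29 and 6.02 in the shunt RNAs, or 6.07 ± 0.062 against 6.22 ± 0.12 (SD, n = 5 each). Shunt 5 lay inside the control range and the other shunt RNAs above it. By animal the differences were 0.22, 0.23, 0.12, 0.20 and -0.022 log2.

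The fitted difference of miR-222 was 0.15 log2 (SE 0.076, 95% interval -0.017 to 0.32), with an adjusted p of 0.266 in limma (0.343 with the animal as a fixed replicate block). The exact permutation test gave p = 0.0556 unpaired and 0.125 within animals. Without shunt replicate 5 the difference was 0.20 log2 and passed the unpaired exact permutation test (p = 0.00794). In all it passed in 15 of 38 alternatives, the others of which did not leave out shunt 5. miR-222 was kept only through its shunt channels, and its control readings were not above background. These limma and exact tests, passed or not, therefore cannot decide whether its level differed. Because no control channel was above background, the control level is only a bound. The mean control bound (6.26) was above the shunt mean (6.22), so no fold can be given for miR-222.

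**Figure D2:**
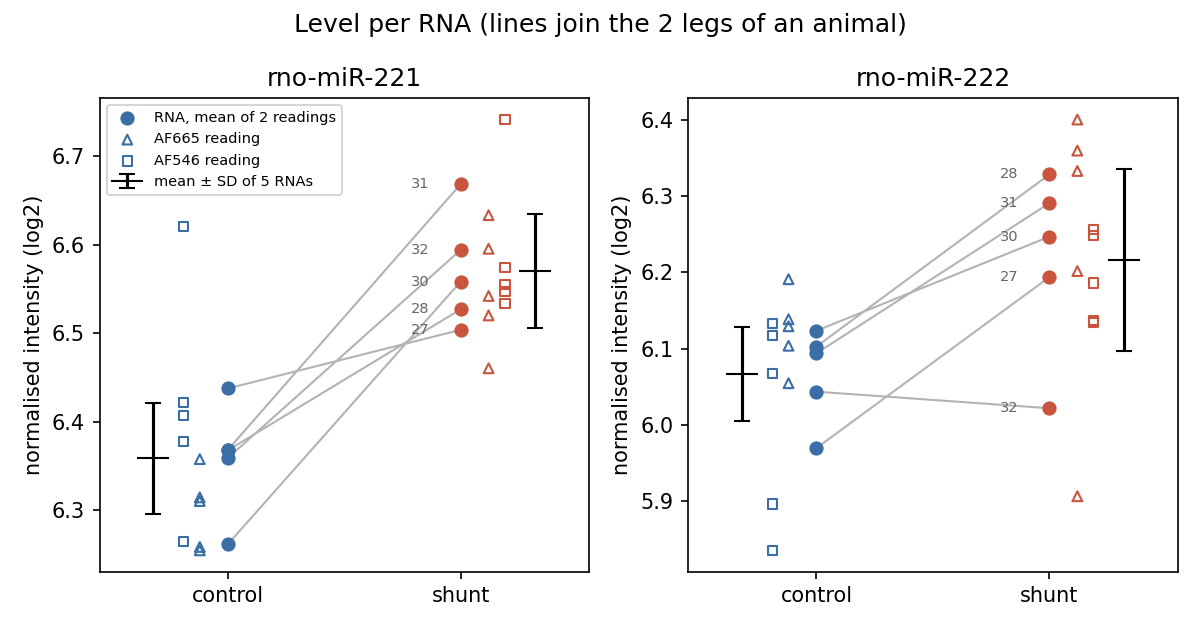
Normalized log2 intensity of rno-miR-221 (left) and rno-miR-222 (right) by group, with a filled point per RNA, lines joining the legs of an animal (numbered), open symbols for the readings in each dye, and bars for the mean ± SD of 5 RNAs. For miR-221 all shunt points (6.50 to 6.67) lie above all control points (6.26 to 6.44); for miR-222 shunt 5 (6.02) lies among the controls (5.97 to 6.12).

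The test did not separate the shifts of miR-221 and miR-222 as read. The difference between the readings was 0.062 log2 (exact permutation p = 0.468 unpaired and 0.438 within animals). It rests on control readings of miR-222 that were not above background, so it is no measure of how far the shifts differ. Over the 10 RNAs the levels correlated with r = 0.48 (Spearman 0.36), which includes the difference between groups. As deviations from the group means, the correlation was -0.28 over the 10 RNAs, which share arrays in pairs. Among the 92 other kept miRNAs, miR-222 ranked 31 by likeness to miR-221, and miR-221 ranked 30 by likeness to miR-222.

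Most kept miRNAs read higher in the shunt RNAs, and the shifts of the pair were near that common shift. Of the 93, 67 had a higher mean in shunt (72.0%), with a median difference of 0.12 log2. With each RNA centred on its median over the kept miRNAs, miR-221 was -0.14 ± 0.074 in control and -0.058 ± 0.12 in shunt RNAs (SD, n = 5 each). The remaining difference of 0.086 log2 was positive in 3 of 5 animals and did not pass the exact permutation test (p = 0.206). For miR-222 the centred levels were -0.44 ± 0.10 and -0.41 ± 0.090, a difference of 0.024 log2 that was positive in 2 of 5 animals (exact permutation p = 0.690). The control readings of miR-222 were not above background, so that p decides nothing about its level. After this centring miR-221 no longer passed the exact test that it passed on the uncentred levels. The median is itself taken over miRNAs selected by group, 61 of the 93 having more shunt than control channels above background. The part of the common shift in the level of miR-221 was not tested.

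**Figure D3:**
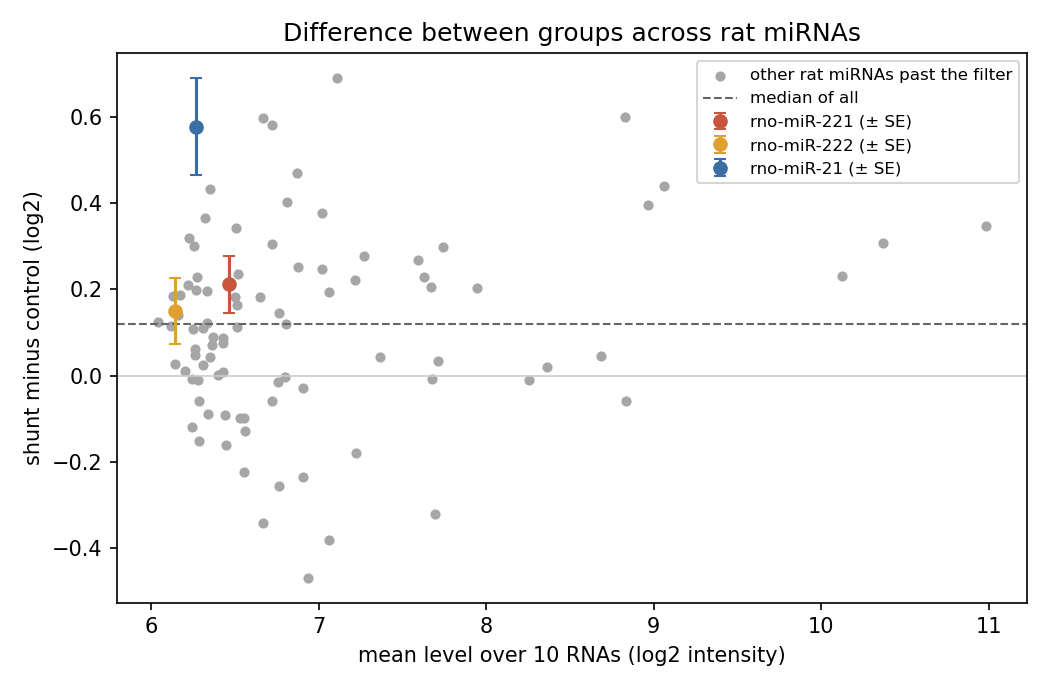
Difference between shunt and control (log2) of the 93 kept rat miRNAs against their mean level over 10 RNAs (log2 intensity), with rno-miR-221, rno-miR-222 and rno-miR-21 in colour with ± SE and the median of all as a dashed line. miR-221 (0.21) and miR-222 (0.15) lie just above the median of 0.12, and miR-21 (0.58) lies far above it.

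Averaged over the arrays with both groups, the differences were smaller, although 1 of these arrays gave miR-221 a difference above the overall 0.21. On the array with shunt 1 in AF546 and control 5 in AF665, miR-221 was higher in the shunt RNA by 0.24 log2 and miR-222 differed by -0.0051. On the array with the opposite dyes, shunt 5 in AF665 and control 1 in AF546, the differences were 0.013 and 0.071. The means of 0.12 for miR-221 and 0.033 for miR-222 rest on 2 arrays and have no test. On the same arrays the median over the kept miRNAs was 0.046, and 59 of them had a higher mean in shunt (63.4%). Over all 10 arrays the AF665 over AF546 ratio averaged -0.080 ± 0.11 log2 for miR-221 and 0.081 ± 0.10 for miR-222 (SD, n = 10 arrays). The SD is the spread of single arrays, not the error of the mean, and a dye bias was not tested.

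The difference of miR-221 also varied with the spot. It was 0.27, 0.25 and 0.11 log2 for spots 1, 2 and 3 of the probe, and with spot 3 alone the exact permutation test gave p = 0.143. For miR-222 the values were 0.26, 0.13 and 0.066. Spot 1 gave the largest and spot 3 the smallest difference for both.

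**Figure D4:**
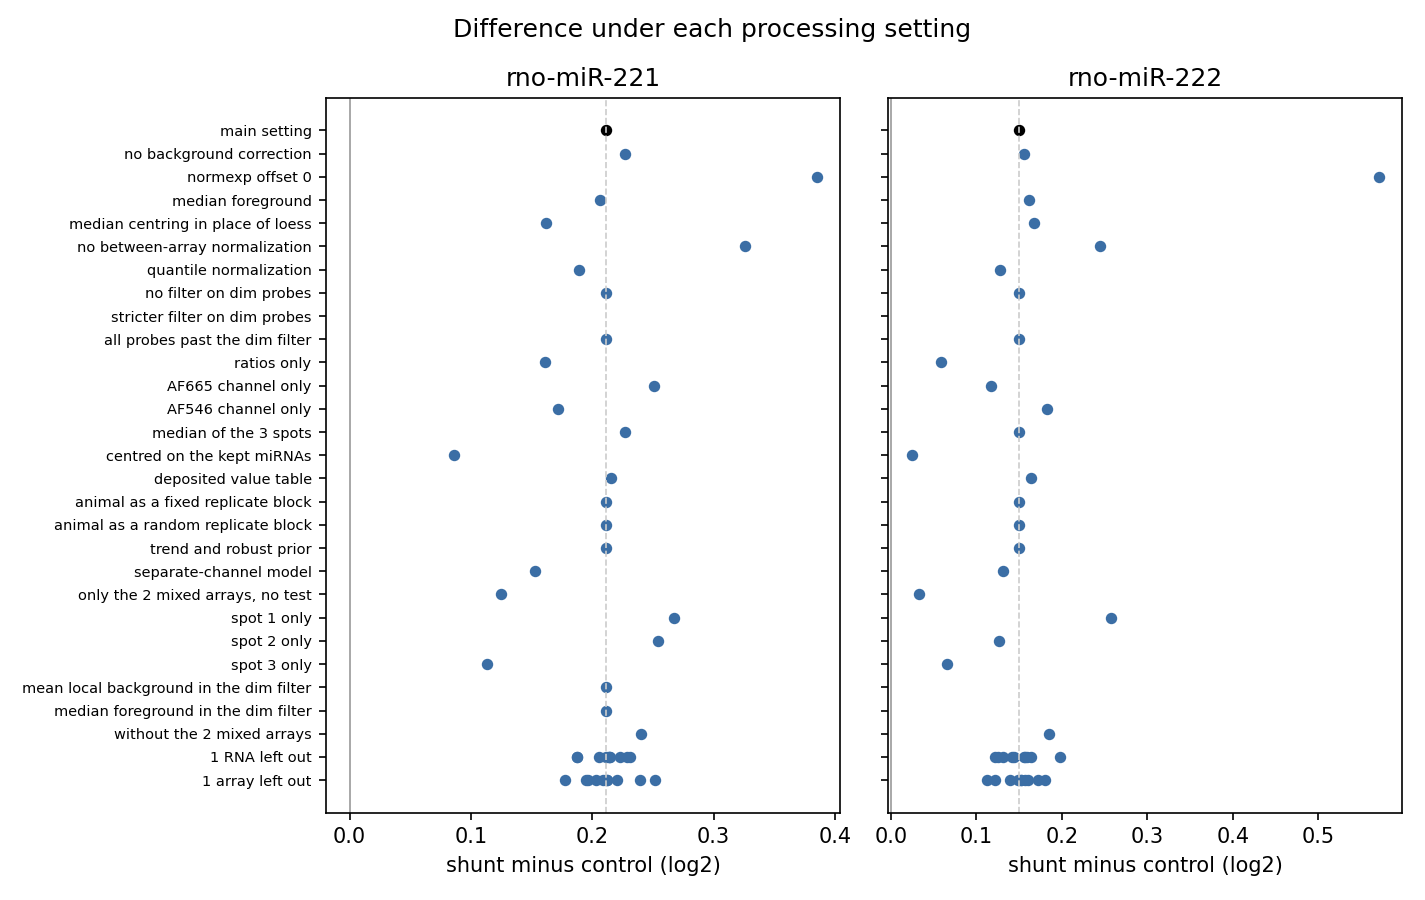
Difference between shunt and control (log2) of rno-miR-221 (left) and rno-miR-222 (right) under each processing setting, a point per setting (a point per RNA or array left out in the last rows), with the main value as a dashed line; settings without a point did not keep the miRNA. All points are above 0, from 0.086 to 0.39 for miR-221 and from 0.024 to 0.57 for miR-222.

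In the authors' deposited table, which sets the legs of each animal against each other, miR-221 was higher on the side of the shunt in 4 of 5 animals, by 0.18, 0.57, 0.20 and 0.13 log2 in animals 27, 28, 30 and 31 and by -0.012 in animal 32. miR-222 was higher in all 5, by 0.27, 0.25, 0.018, 0.24 and 0.038 log2 in the authors' deposited table. The authors' deposited p-value was under 0.05 in 0 of these 10 comparisons. Animal 32 thus read differently for both miRNAs in the deposited values and in the levels above.

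The other members of a list of miRNAs known for promoting smooth muscle growth differed among themselves. Of 9 listed, 8 were on the array and 7 were kept, miR-221 and miR-222 included. Their median difference was 0.15 log2, against 0.12 over all kept miRNAs, with 6 higher and 1 lower, and 1 passed the limma test. Over all kept miRNAs 72.0% were higher and 1.08% passed with a higher level. That one was miR-21, which is known to promote smooth muscle growth. Its log2 level was 6.02, 5.94, 5.94, 6.07 and 5.92 in the control RNAs and 6.51, 6.83, 6.74, 6.50 and 6.19 in the shunt RNAs, with a difference of 0.58 (SE 0.11, limma adjusted p = 0.0324). Of its channels, 0 of 10 control and 8 of 10 shunt ones were above background, so the control level is a bound and miR-21 was kept only through the shunt group. With the animal as a fixed replicate block it no longer passed (limma adjusted p = 0.126). It missed the threshold in 17 of 44 alternatives, among them 7 of the 10 that leave out 1 RNA (all but control replicates 3 and 4 and shunt replicate 5; adjusted p up to 0.116).

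The rest of that list did not pass. miR-146, an inhibitor of inflammatory signalling that also acts on smooth muscle, differed by 0.47 log2 (SE 0.18, limma adjusted p = 0.195), with control 4 (7.35) above every shunt RNA. Without control replicate 4 it passed (0.65, limma adjusted p = 0.0032), and so it did with spot 1 alone (0.72, adjusted p = 0.033). miR-130a, which represses the growth arrest factor GAX, differed by 0.044 (SE 0.091). miR-24, induced by platelet-derived growth factor, differed by 0.020 (SE 0.15), and miR-26a, which favours growth over contraction, by -0.0090 (SE 0.17). The direction of these last 3 changed with the processing, with centring or scaling between arrays among the settings that turned each. miR-31, also a growth-promoting miRNA, reached 2 of 10 shunt channels and was not kept.

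The levels most like that of miR-221 over the 10 RNAs were those of miR-200a (r = 0.87, Spearman 0.76), miR-181b (0.83 and 0.78) and miR-28 (0.82 and 0.81). Their differences between groups were 0.19, 0.11 and 0.30 log2, none past the limma threshold (adjusted p = 0.182, 0.294 and 0.0754). Most like miR-222 were miR-25 (r = 0.87, Spearman 0.79), miR-21 (0.85 and 0.66) and miR-151* (0.82 and 0.65). miR-25 differed by 0.12 and miR-151* by 0.32 log2 (limma adjusted p = 0.294 and 0.182). For miR-200a, miR-25, miR-21 and miR-151* no control channel was above background, and for miR-28 and miR-181b 1 of 10 was, so these differences and likenesses rest on control readings near or below background. Without control replicate 4, miR-28 (0.35, limma adjusted p = 0.0129) and miR-151* (0.36, adjusted p = 0.0494) passed. miR-28 also passed with the median of the spots, a trended robust prior and spot 1, and miR-200a with spot 1. These correlations include the difference between groups and the shared arrays.

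Markers of contractile smooth muscle were present, those of endothelium only in part, and markers of other cells varied. In bulk tissue, a change in the share of a cell type and a change in RNA per cell cannot be told apart. Of the contractile smooth muscle list (miR-143, miR-145, miR-23b, miR-24, miR-27b) all 5 were kept, with a median difference of 0.020 log2 and 0 past the limma threshold (1 lower at an unadjusted p under 0.05). Summed levels on the linear scale ran from 880 to 1617 in control and from 1012 to 1490 in shunt RNAs. miR-143, the brightest of them, differed by 0.046 (SE 0.26). miR-145 differed by -0.26 (SE 0.11, limma unadjusted p = 0.0429, adjusted p = 0.235) and was higher in shunt in 0 of 5 animals; it is named here after its value was seen. The endothelial miR-126 was above background in all channels and differed by -0.0070 log2 (SE 0.14). miR-10a, the other kept member of the 4 endothelial miRNAs on the array, differed by 0.15 (SE 0.075), with 1 of 10 control and 8 of 10 shunt channels above background. The sums of the kept members were 232 to 324 in control and 242 to 312 in shunt RNAs. miR-126* was above background in no channel and miR-92 in 0 control and 2 shunt channels, so neither was kept.

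Of 5 striated muscle miRNAs on the array 4 were kept, and these 4 had higher means in shunt RNAs, with a median difference of 0.23 log2, 0 past the limma threshold (1 at an unadjusted p under 0.05). Over all kept miRNAs 72.0% were higher and 17.2% were higher at that unadjusted p. Its members had summed levels of 345 to 527 in control and 440 to 734 in shunt RNAs. miR-1 differed by 0.58 (SE 0.28, limma adjusted p = 0.258; 0.83 and adjusted p = 0.0135 without control replicate 4) and miR-206 by 0.23 (SE 0.22, limma adjusted p = 0.501). miR-208, the heart member, was above background in no channel. Of 6 leukocyte miRNAs on the array 3 were kept, 2 higher and 1 lower with a median difference of 0.11 log2 and 1 higher at an unadjusted p under 0.05, and with sums of 235 to 347 in control and 291 to 353 in shunt RNAs. Among them miR-146, given above, differed by 0.47 log2, miR-181a by 0.11 (SE 0.083) and miR-150 by -0.0040 (SE 0.12). Of those not kept, miR-142-5p was above background in no channel. miR-142-3p was above background in 1 control and 2 shunt channels (mean log2 5.98 in control and 6.03 in shunt RNAs). miR-223 was so in 1 control and 1 shunt channel (6.08 in control and 6.02 in shunt RNAs). The erythroid miR-451 and miR-144 were above background in no channel. The part of the muscle and leukocyte lists in the levels of miR-221 and miR-222 was not tested.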

How the data were processed

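Total RNA was labelled directly with the dyes AF665 and AF546 and read on a miRNA array for several species, per the labels' protocols. The deposited scanner files give foreground and background intensity at 635 and 532 nm, not normalized, per the file headers. The deposited value table holds log2 values per spot and RNA, centred on 0 in each row, with column medians from -0.12 to 0.078; its normalization is not stated in the labels or file headers used. The authors' fold table has, for each animal, a score (the fold with a sign for direction) and a p-value of an unnamed test. A score of ranks per RNA, also deposited by the authors, was checked only.

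Intensities were corrected with normexp (offset 50), normalized by loess (span 0.3, 4 iterations) and Aquantile with limma 3.58.1 under R 4.3.3 and statmod 1.5.0, and averaged over 3 spots and then 2 channels. Rat miRNAs above background in a share of at least 0.5 of the channels of 1 group were kept (93). The 3 ways of calling background were all computed, and the one used was chosen with earlier results in view. Groups were compared with lmFit and eBayes, two-sided, with Benjamini-Hochberg adjustment at 0.05, and single values with exact permutation tests. RNAs share arrays and were taken as independent, so p-values may be too small. The number of arrays limits the precision.

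Control and shunt RNAs of 1 animal are tied by the sample names in the labels. Deviations of the paired RNAs from their group means correlated with -0.42, 0.0052, -0.19, -0.047 and 0.34 for animals 27, 28, 30, 31 and 32. No RNAs were identical (correlations of 0.85 to 0.99). The members and lists were chosen with earlier results of these data known. Named miRNAs are the pair, the kept members of the growth list, the 3 most like each member, miR-21 as the called miRNA, and up to 2 kept members of each marker list with the highest mean signal. Members not kept were added, namely miR-31, miR-126*, miR-92, miR-208, miR-142-5p, miR-451 and miR-144. miR-145, miR-181a and, of those not kept, miR-142-3p and miR-223 were added after their values were seen.

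The steps were tested on simulated arrays for shunt against control over 93 miRNAs (24 changed, 20 runs). With changes in both directions, 2.97% of the unchanged miRNAs were called, and 85.6%, 100.0% and 98.8% of those changed by 0.5, 1 and 2 log2. With all changes upward, nearer to the direction most miRNAs took here, 12.2% of the unchanged miRNAs were called, above the 5% that the test had been required to meet, and their mean estimate was -0.060 log2. The requirement was then kept for the first case only. Estimates in the upward case averaged 0.16, 0.45 and 1.11 for changes of 0.5, 1 and 2, so changes are understated. Every simulated miRNA was given the same spread between RNAs. In the real control RNAs the SD differed among miRNAs, for example 0.063 log2 for miR-221 and 0.63 for miR-210. The shares called are thus no measure of the power in these data.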

Additional observations from a re-analysis of the deposited data

Results flagged for a closer look

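In 1 of the 44 groups of 5 values examined for a sample far from the others, a sample stood apart. This was miR-25, one of the 3 miRNAs most like miR-222, in control 4. Its log2 level was 6.07 there, against 5.96 ± 0.0052 (SD) in the other 4 control RNAs, and the gap to the nearest was 0.908 of the whole range. Chance picks about 5% of such groups. No group of miR-221 or miR-222 values stood out in this way.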

How the results depend on the processing

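The fitted difference of miR-221 was above 0 in all 45 alternatives and that of miR-222 in all 43 that gave one. miR-221 passed in limma with no filter (difference 0.21, adjusted p = 0.0361), and miR-222 in none. The stricter filter on dim probes kept neither, and 2 other definitions of background did not keep miR-222. Only the 2 mixed arrays gave 0.12 and 0.033. Dropping 1 RNA or array at a time, miR-221 was 0.18 to 0.25 and miR-222 was 0.11 to 0.20.

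The exact permutation test of miR-221 was lost with centring on the kept miRNAs (0.086, p = 0.206) and with spot 3 (0.11, p = 0.143). That of miR-222 passed with AF546 only (0.18), the deposited value table (0.16), median centring in place of loess (0.17), the median foreground (0.16), the median of the spots (0.15), no background correction (0.16), no between-array normalization (0.24), an offset of 0 (0.57), spot 1 (0.26) and without the mixed arrays (0.18), with p from 0.00794 to 0.0476; dropping 1 RNA or array its p was 0.00794 to 0.159 (differences 0.11 to 0.20). miR-222 was kept only through its shunt channels and its control readings were not above background, so these passes are no support for a shift. miR-221 was also kept only through its shunt channels, so its passes in the exact test cannot alone decide on a shift. The differences in spots are a description only. With margins of 1 SD and 3 SD they were 0.80 and 3.2 for miR-221 and 3.2 and 0.60 for miR-222. Leaving out 1 RNA gave 1.95 to 3.2 spots for miR-221 and 2.25 to 3.5 for miR-222. The difference between the shifts turned to -0.010 with AF546 only, -0.0052 with median centring and -0.19 with an offset of 0, and was 0.0050 to 0.12 when 1 RNA or array was dropped.

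The count of miRNAs past the limma threshold, 1 as reported, was 0 (unadjusted counts in brackets) with median centring (9), no between-array normalization (31), the stricter filter (5), AF665 only (18), the deposited value table (4), the animal as a fixed replicate block (13), the separate-channel model (16), spot 2 (13) and spot 3 (11). It was 2 with an offset of 0, the median foreground in the signal or the filter, quantile normalization, all probes or AF546 only. It was 3 with no background correction, no filter, ratios only or the median of the spots, 4 with centring (2 higher and 2 lower, against 1 and 0 as reported) or a trended robust prior, and 10 with spot 1. Leaving out 1 RNA or array gave 0 to 25; the 25 came without control replicate 4, 24 of them higher in shunt, and miR-221 then had an adjusted p of 0.0513. With the animal as a random replicate block it was 1, and the block changed no call of the pair.

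Of the 18 named miRNAs 8 kept their direction in every alternative. The others turned as follows, none past the limma threshold where it turned. miR-126 became 0.060 with AF546 only, 0.25 in the deposited table, 0.0073 with the median foreground, 0.0069 with the median of the spots, 0.38 with no between-array normalization, 0.080 in the separate-channel model, 0.11 and 0.052 with spots 1 and 2 and 0.076 without the mixed arrays (dropping 1 RNA or array, -0.075 to 0.085). miR-143 became -0.17 with AF665 only, -0.079 with centring, -0.015 with median centring, -0.046 with the median of the spots, -0.53 with ratios only and -0.26 and -0.16 with spots 2 and 3 (dropping, -0.18 to 0.31). miR-150 became 0.047 with AF546 only, 0.077 in the deposited table, 0.026 with the median of the spots, 0.23 with no between-array normalization, 0.027 with quantile normalization, 0.21 with ratios only and 0.17 and 0.029 with spots 1 and 2 (dropping, -0.085 to 0.060). miR-24 became -0.0095 with AF546 only, -0.11 with centring, -0.062 with median centring, -0.040 with an offset of 0, -0.25 with ratios only and -0.21 with spot 3 (dropping, -0.11 to 0.12). miR-26a became 0.25 with AF546 only, 0.52 in the deposited table, 0.012 with the median foreground, 0.63 with no between-array normalization, 0.013 with quantile normalization, 0.19 with spot 1 and 0.016 without the mixed arrays (dropping, -0.0997 to 0.12). miR-130a became -0.035 with AF546 only, -0.081 with centring, -0.018 in the separate-channel model and -0.037 with spot 3 (dropping, -0.0016 to 0.094). miR-181b became -0.017 with centring and -0.012 with spot 3, miR-25 -0.0018 with centring, miR-200a -0.12 with ratios only and miR-206 -0.046 in the separate-channel model. The causes were not tested. The settings with a single spot, without the mixed arrays and with other background definitions, and dropping RNAs for the spot counts, were chosen after seeing the data. Weak signal near background limits both members.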
